A study of Mus musculus with 15 samples.

Results

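Spleens of mice with acute promyelocytic leukaemia were divided by the level of Prg3, a gene of an eosinophil granule protein, and all other genes were described between the resulting sides. The members were chosen by the measured Prg3 value alone. Of 15 tumours, 9 had a Prg3 value over 7.4 on the log2 scale and are called Prg3-high, and 6 had a value under it and are called Prg3-low. The Prg3-high side held tumor_33, tumor_9523, tumor_31, tumor_9492, tumor_9500, tumor_26, tumor_9508, tumor_9520 and tumor_9495. The Prg3-low side held tumor_9509, tumor_9504, tumor_9529, tumor_29, tumor_9514 and tumor_36. All 15 samples shared the strain (Bl/6 Taconic), the organ (spleen) and the disease, which is a leukaemia of cells arrested at the promyelocyte stage. The sides are not groups of the study: its labels give a single group with no treatment, and the genotype and age of the mice are not given in the sources used here. The labels do not say whether each tumour came from a separate animal, so the p-values cover only how these samples vary, which may be technical in part. Each sample was measured on 1 whole-transcript exon array, and the number of arrays limits the precision. A gene value is the median log2 intensity over the probesets of the gene, where a probeset mostly reads a single exon.

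Eosinophils are granulocytes that share an early bone marrow origin with neutrophils and basophils. Their granules store cationic proteins, among them the major basic proteins encoded by Prg2 and Prg3, eosinophil peroxidase (Epx) and ribonucleases of the Ear family. The precursors make most of this granule protein mRNA. Surface proteins by which eosinophils are recognised include the interleukin-5 receptor chain Il5ra, the eotaxin receptor Ccr3 and Siglecf. In a whole spleen, fewer cells of a type and less RNA per cell cannot be told apart.

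The arrays had median intensities of 108 to 129. The detection limit was set at 6.41, where the 40th percentile of the 16299 named genes lay, and 9779 genes, Prg2 and Prg3 among them, averaged above it across the 15 tumours. The arrays of tumor_9514 and tumor_9509, both Prg3-low, stood apart from the rest: their median correlation with the other arrays was 0.884 and 0.891, against 0.921 to 0.948 for the remaining 13. A gene of the promyelocyte stage was high on both sides, though no spleen without leukaemia was there for comparison. Mpo (myeloperoxidase, a promyelocyte granule enzyme) lay at 12.79 to 13.16 in Prg3-high tumours and at 12.42 to 13.30 in Prg3-low tumours.

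Prg3 chose the sides, so its values are a description without a test. In Prg3-high tumours it lay at 7.82 at the lowest, 9.07 at the median and 11.11 at the highest, and in Prg3-low tumours at 5.14, 6.00 and 6.97. The tumours nearest the threshold were tumor_9495 at 7.82 on the high side and tumor_9509 at 6.97 on the low side, and 5 of the 6 Prg3-low values lay below the detection limit. The mean was higher on the high side in 9 of the 9 Prg3 probesets, and in 6 of them the sides did not overlap. Prg2, which lies beside Prg3 on chromosome 2 and encodes the related major basic protein, was higher on the high side with 1 tumour out of place. It lay at 11.08, 12.05 and 12.65 (lowest, median and highest) in Prg3-high tumours and at 8.34, 9.36 and 11.22 in Prg3-low tumours. This was tumor_9509, where Prg2 stood above its value in tumor_9495 (11.08) and tumor_9520 (11.11). Prg2 was therefore well above the detection limit in every tumour, also where Prg3 was not.

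The promoters of Prg3 and Epx are shown because Epx, on another chromosome, followed the split most closely of the granule genes other than Prg2 and Prg3. Both are windows of 300 bases around the gene's start, most of them upstream of it, and come from RefSeq, build GRCm38.p6. Capitals mark matches, on either strand, to AGATAA and TGATAA, which GATA factors bind, and to TTNNGNAA, a loose form of the site of C/EBP factors. Both factor families act in eosinophil development. The Prg3 promoter is chr2:84987965-84988264 on the plus strand and the Epx promoter chr11:87875487-87875786 on the minus strand.
Prg3: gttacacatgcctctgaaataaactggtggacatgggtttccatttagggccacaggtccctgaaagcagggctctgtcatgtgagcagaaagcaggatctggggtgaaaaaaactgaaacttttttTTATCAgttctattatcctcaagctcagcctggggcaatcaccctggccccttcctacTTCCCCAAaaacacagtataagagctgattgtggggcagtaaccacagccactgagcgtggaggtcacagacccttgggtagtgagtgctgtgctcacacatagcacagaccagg
Epx: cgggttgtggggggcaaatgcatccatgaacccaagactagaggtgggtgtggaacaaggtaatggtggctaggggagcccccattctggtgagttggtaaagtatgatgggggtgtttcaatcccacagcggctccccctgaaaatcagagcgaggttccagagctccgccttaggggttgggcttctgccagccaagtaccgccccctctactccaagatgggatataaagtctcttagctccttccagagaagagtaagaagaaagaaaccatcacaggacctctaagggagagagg
The Prg3 window held 1 match to TGATAA, written TTATCA on this strand, and 1 match to TTNNGNAA, which did not overlap. The Epx window held 0 matches to the 3 motifs. Among 32851 promoter windows of this length, 9.05% held TGATAA, 11.2% AGATAA and 40.7% TTNNGNAA, so a match is a description of the letters only.

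The question was which of the other genes differed between Prg3-high and Prg3-low tumours. The answer at an adjusted threshold was none: limma with Benjamini-Hochberg adjustment over 9777 genes called 0 genes higher (0%) and 0 lower (0%), and the smallest adjusted p was 0.0886. At an unadjusted p under 0.05, 1354 genes (13.8%) were higher and 84 (0.859%) lower in Prg3-high tumours. The sides did not overlap in 28 genes that lay higher (0.286%) and in 2 that lay lower (0.0205%). The count of adjusted calls became 11 without tumor_9504, 10 without tumor_29 and 4 without tumor_9529, all 3 Prg3-low. Every difference named in what follows therefore missed the adjusted threshold on all 15 tumours and is given as a value.

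Much of the lean towards higher values moved with the 2 arrays that stood apart. The median difference over all 9777 genes, Prg3-high minus Prg3-low, was 0.10, and 94.2% of the genes at an unadjusted p under 0.05 were higher. With arrays centred on their medians these values were 0.04 and 81.8%, with quantile normalized arrays -0.01 and 58.4%, and without tumor_9509 and tumor_9514 they were 0.03 and 71.5%. Differences are therefore read against the median of 0.10, and named with their value without these 2 tumours where that differs by more than 1.5 times.

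**Figure D1:**
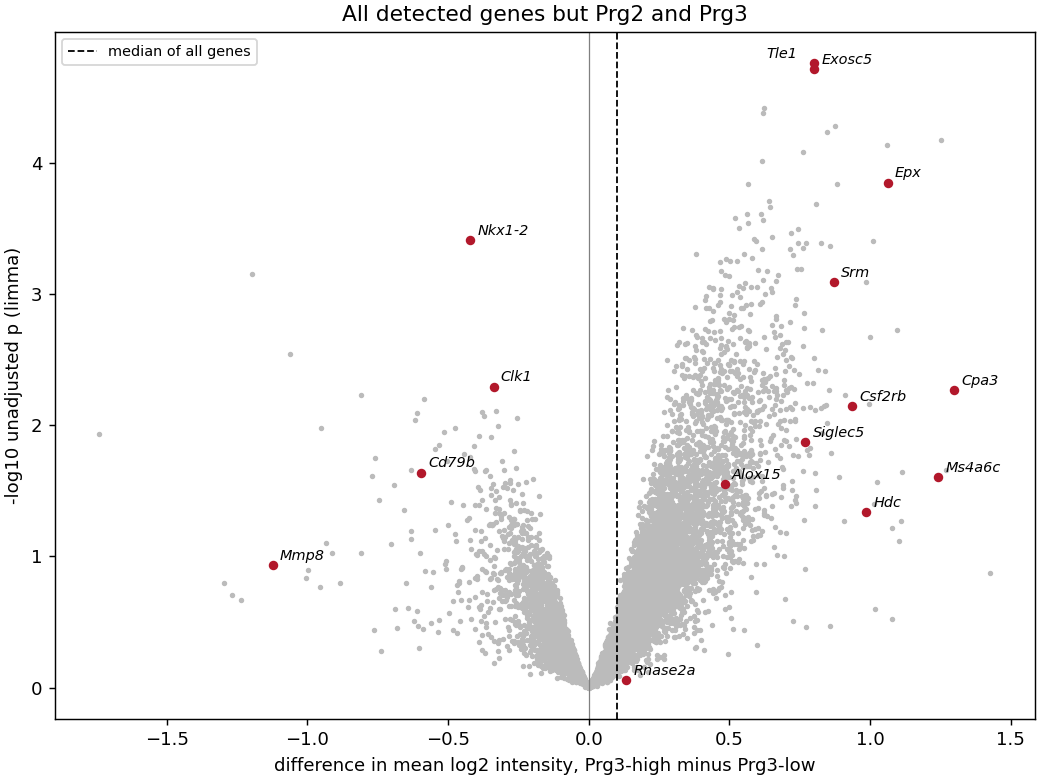
Difference in mean log2 intensity between Prg3-high (9) and Prg3-low (6) tumours (x axis) against the unadjusted limma p on a -log10 scale (y axis) for 9777 detected genes, 1 point each, with named genes in red. The cloud leans to the right of 0, around a median of 0.10, and Tle1, Exosc5 and Epx lie among its upper points, none with an adjusted p under 0.05.

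Among eosinophil granule genes other than Prg2 and Prg3, Epx stood closest to the split. Epx, the peroxidase of the eosinophil granule, lay at 6.80, 7.49 and 8.50 (lowest, median and highest) in Prg3-high tumours and at 6.23, 6.64 and 6.96 in Prg3-low tumours. The sides overlapped only through tumor_9495 (6.80), the high tumour nearest the threshold, and tumor_36 (6.96), the low tumour with the least Prg3. Its mean difference was 1.06 ± 0.22 (SE, n = 9 and 6, limma adjusted p = 0.109), with 0.98 on quantile normalized arrays and 1.02 when tumor_9509 and tumor_9514 were left out. All 16 Epx probesets had a higher mean on the high side, by 0.43 to 2.80. Since 2 Prg3-low values lay below the detection limit, no fold is given. When the Prg3 level was fitted as a continuous predictor in place of the split, Epx had the smallest unadjusted p of 9777 genes, with a slope of 0.31 ± 0.06 per log2 unit of Prg3 (SE, limma adjusted p = 0.173).

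Of the ribonuclease genes, Rnase2a did not share this pattern and the others measured were not detected on average. Ear1 and Ear2 were not among the genes with a value. Rnase2a, listed as Ear11 on the platform, was highest of all in tumor_36 at 10.44 and also high in tumor_9504 at 8.39, both Prg3-low, while the 4 other Prg3-low tumours lay at 4.24 to 6.30. In Prg3-high tumours it ranged from 4.45 in tumor_31 to 8.77 in tumor_9508. The difference was 0.13 ± 0.84 (SE, limma adjusted p = 0.964) and turned to -0.50 without tumor_9509 and tumor_9514. Ear6 missed the detection limit on average, with means of 6.50 ± 0.63 (SD, n = 9) in Prg3-high tumours and 5.88 ± 0.65 (SD, n = 6) in Prg3-low tumours. The Ear6 mean was higher on the high side in 4 of its 5 probesets. It was highest in tumor_9508 (7.77), tumor_9520 (7.29) and tumor_36 (7.05), the first 2 high and the last low in Prg3. Ear10, read by 1 probeset, and Rnase2b, read by 2, stayed at or below 5.33 in every tumour. These genes belong to a family of close relatives, so their probes may read each other's transcripts.

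The eosinophil surface receptors Il5ra and Ccr3 averaged below the detection limit on both sides. Il5ra lay at 3.90 to 5.36 in Prg3-high tumours and at 4.10 to 4.52 in Prg3-low tumours, and the 2 highest values were those of tumor_33 (5.36) and tumor_9523 (5.17), the tumours with the most Prg3. Of the 14 Il5ra probesets, 1 averaged above the detection limit, and the probeset differences ran from -0.47 to 1.86. Ccr3 lay at 5.07 to 6.75 in Prg3-high tumours and at 5.26 to 6.56 in Prg3-low tumours, with means that differed by -0.01. Adgre4, a surface receptor of eosinophils and some macrophages, ranged from 4.57 to 6.52 on the high side and from 4.58 to 5.75 on the low side. In all, 3 of the 9 measured genes of the eosinophil list other than Prg2 and Prg3 were detected, with a median difference of 0.48 against 0.10 for all genes, and 2 of the 3 had an unadjusted p under 0.05 and were higher, against 13.8% of all genes. Because Il5ra and Ccr3 were below the detection limit on average, the sides are called by Prg3 and not by a cell type.

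A symbol that may be Siglecf was examined after its values were seen. The platform lists 13 probesets as Siglec5, an alias that the gene table gives for both Siglecf and Siglece, so the gene behind it is not settled. It lay at 7.90, 8.92 and 9.37 (lowest, median and highest) in Prg3-high tumours and at 7.11, 7.98 and 8.998 in Prg3-low tumours. The difference was 0.77 ± 0.28 (SE, limma adjusted p = 0.230), and the sides overlapped through tumor_29 (8.998), tumor_9529 (8.36) and tumor_9504 (8.08) on the low side. Alox15, a lipoxygenase of eosinophils and macrophages, had means of 7.19 ± 0.47 (SD, n = 9) in Prg3-high tumours and 6.71 ± 0.31 (SD, n = 6) in Prg3-low tumours. Its highest value was 8.19 in tumor_9523, its lowest 6.25 in tumor_29, and the difference was 0.48 ± 0.20 (SE, limma adjusted p = 0.288).

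**Figure D2:**
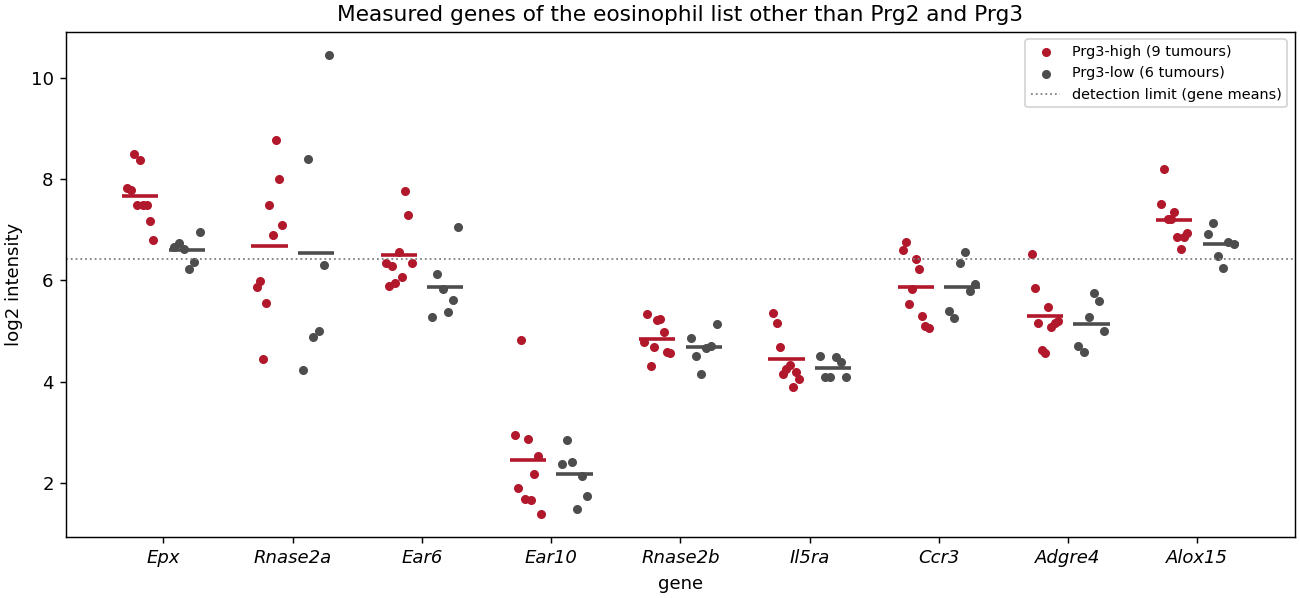
Log2 intensity (y axis) of the 9 measured genes of the eosinophil list other than Prg2 and Prg3 (x axis), 1 point per tumour, Prg3-high left and Prg3-low right of each gene, with bars at the means and a dotted line at the detection limit of 6.41. Epx separates the sides but for 1 pair of tumours, Rnase2a spreads over both sides, and Il5ra and Ccr3 lie mostly below the line.

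Cytokine receptor chains led the list of regulators of eosinophil development. Csf2rb encodes the beta chain shared by the receptors for interleukin-3, interleukin-5 and granulocyte-macrophage colony-stimulating factor, and Csf2rb2 its interleukin-3 specific relative. Csf2rb lay within 9.49 to 10.07 in all Prg3-high tumours and between 7.13 and 9.97 in Prg3-low tumours, where it was lowest in tumor_9509 (7.13) and tumor_9514 (8.23). The difference of 0.93 ± 0.31 (SE, limma adjusted p = 0.181) was 0.36 without those 2 tumours. Csf2rb2 differed by 0.86 ± 0.32 (SE, limma adjusted p = 0.243), and the difference was 0.63 without them. Both genes lie side by side on chromosome 15 and are close relatives, so their probes may read each other. Il3ra, the interleukin-3 receptor alpha chain, had means of 8.44 ± 0.30 (SD, n = 9) in Prg3-high tumours and 8.45 ± 0.28 (SD, n = 6) in Prg3-low tumours, a difference of -0.02 that turned to 0.11 without the 2 tumours.

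Among transcription factors of that list, Zfpm1, the cofactor of GATA proteins, averaged 7.12 ± 0.10 (SD, n = 9) in Prg3-high and 6.84 ± 0.21 (SD, n = 6) in Prg3-low tumours (limma adjusted p = 0.201). Gata2 averaged 7.83 ± 0.27 in Prg3-high and 7.54 ± 0.25 in Prg3-low tumours (limma adjusted p = 0.342), while Gata1 missed the detection limit with means of 6.14 and 6.23. Cebpe, which drives late granulocyte development, differed by -0.05, and Spi1, the gene of PU.1, by 0.15, with 0.03 and 0.31 when tumor_9509 and tumor_9514 were left out. Of the 16 detected genes of the list, 3 had an unadjusted p under 0.05, all higher, a share near the 13.8% of all genes. The list's median difference was 0.16 against 0.10 for all genes, or 0.11 without the 2 tumours.

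After the eosinophil list, the basophil and mast cell list had the highest median difference of the 26 lists, 0.30. Cpa3, carboxypeptidase A3 of mast cell and basophil granules, lay at 9.43, 11.09 and 12.13 (lowest, median and highest) in Prg3-high tumours and at 8.22, 10.09 and 10.82 in Prg3-low tumours. Among Prg3-high tumours, 8 of 9 stood above every Prg3-low tumour, and the remaining tumor_9520 lay among them. The difference was 1.30 ± 0.41 (SE, n = 9 and 6, limma adjusted p = 0.178), a fold of 2.46, and it was 1.73 without tumor_9509 and tumor_9514. Hdc, histidine decarboxylase, which makes histamine, differed by 0.99 ± 0.46 (SE, limma adjusted p = 0.334). It was highest in tumor_9523 (10.49) and tumor_33 (10.21), yet tumor_29 on the low side reached 9.55. Mcpt8, a basophil protease, averaged 10.14 ± 0.56 (SD, n = 9) in Prg3-high tumours and 9.87 ± 0.96 (SD, n = 6) in Prg3-low tumours, a difference within its spread.

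Kit, Prss34, Fcer1g, Gata2 and Gzmb of this list were also detected. None of these had an unadjusted p under 0.05, and their values overlapped between the sides. Gzmb counted as detected only through the Prg3-high side. Others that define basophils or mast cells were not detected on average. The IgE receptor chains Fcer1a and Ms4a2 had means of 4.70 and 5.88 in Prg3-high tumours and 4.59 and 6.20 in Prg3-low tumours. The mast cell proteases Tpsb2, Tpsab1 and Cma1 had means between 5.73 and 6.18 in Prg3-high tumours and between 5.89 and 6.11 in Prg3-low tumours. Of the 15 measured genes of the list 8 were detected, 2 of them with an unadjusted p under 0.05 and both higher, against 13.8% of all genes. The mean level of the detected members ran from 8.41 to 9.27 in Prg3-high tumours and from 8.07 to 8.74 in Prg3-low tumours. Its part in the differences of other genes was not tested.

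**Figure D3:**
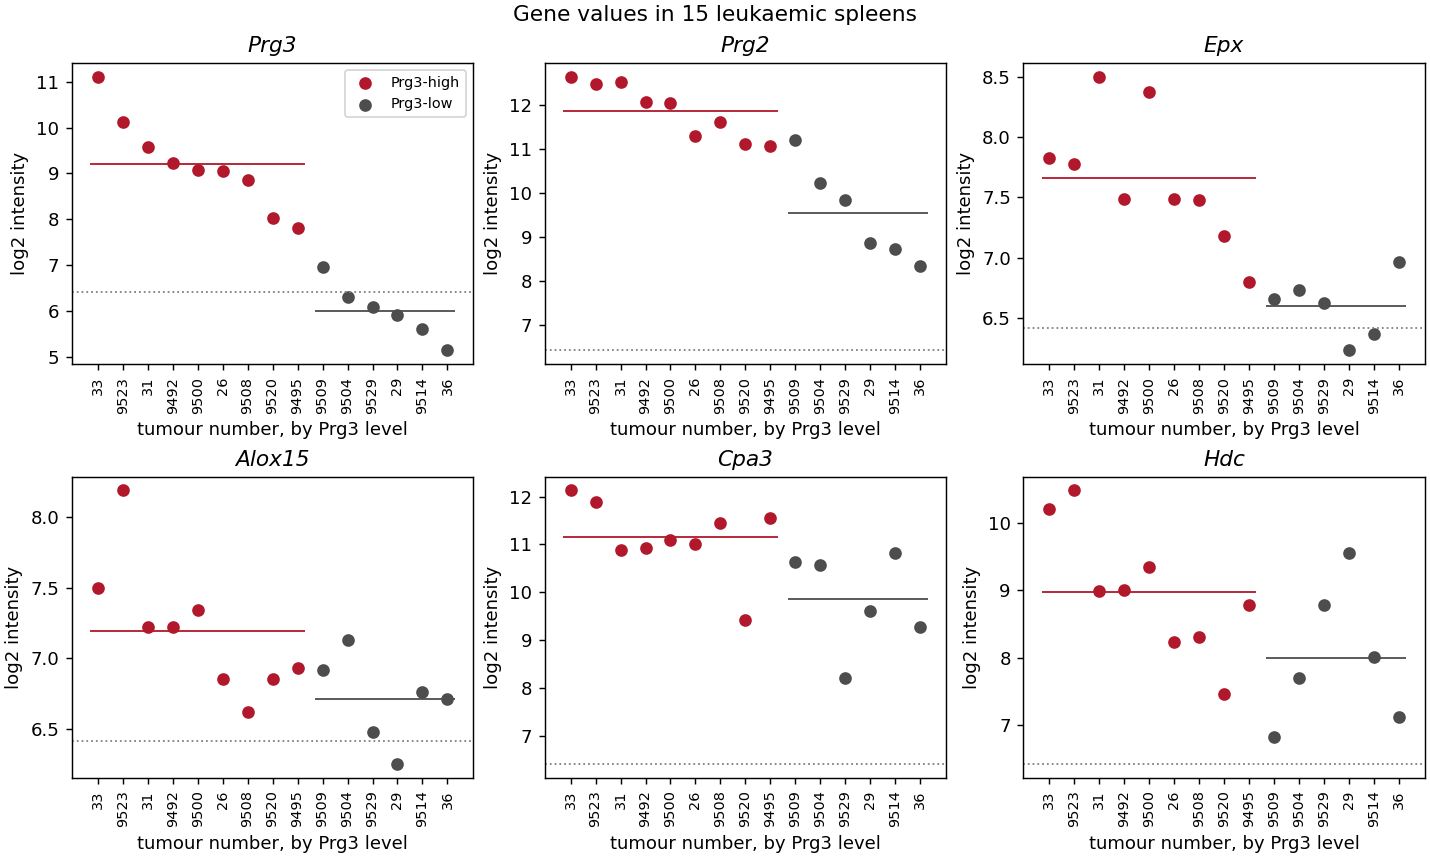
Log2 intensity (y axes, a separate range in each panel) of Prg3, Prg2, Epx, Alox15, Cpa3 and Hdc in each tumour (x axes, in falling order of Prg3), with lines at the means of the sides and a dotted line at the detection limit. Prg2 falls roughly along the order of Prg3 and Epx less closely, with tumor_36 the highest Prg3-low point, while Cpa3 has 1 low point in tumor_9520 and Hdc a high point in tumor_29 among Prg3-low tumours.

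Of the detected genes of the type 2 cytokine and chemokine list, which act on eosinophils from outside or accompany them, 3 had differences above 0 and 7 below. Il5, the main eosinophil growth factor, missed the detection limit with means of 5.82 ± 0.38 (SD, n = 9) in Prg3-high and 5.92 ± 0.25 (SD, n = 6) in Prg3-low tumours. The eotaxin genes Ccl11 and Ccl24 differed by -0.26 (limma adjusted p = 0.416) and 0.14 (limma adjusted p = 0.865). The chemokine genes Ccl4 and Ccl3 had the largest differences among the detected members, -0.39 ± 0.16 (SE, limma adjusted p = 0.299) and -0.36 ± 0.28 (SE, limma adjusted p = 0.573), and that of Ccl4 was -0.23 without tumor_9509 and tumor_9514. Of the 10 detected genes, 1 had an unadjusted p under 0.05, in the lower direction, against 0.859% of all genes, and the median difference was -0.16.

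Retnla, a secreted protein of alternatively activated macrophages, stood out by its range and not by its difference. It lay at 5.01 to 9.42 in Prg3-high tumours and at 4.18 to 9.56 in Prg3-low tumours, where tumor_9529 held the highest value of all, and the difference was 0.77 ± 0.80 (SE, limma adjusted p = 0.691). The Prg3-low mean of Retnla (6.19) lay below the detection limit, so it counted as detected only through the Prg3-high side. Chil4, a chitinase-like protein gene, differed by 0.38 ± 0.41 (SE, limma adjusted p = 0.705), and by 0.82 without tumor_9509 and tumor_9514. Of the 7 detected genes of the alternative activation list, 0 had an unadjusted p under 0.05. In the leukotriene and prostaglandin list 1 of 7 had such a p, Alox15, a share near the 13.8% of all genes that were higher. Alox5, which makes leukotrienes in granulocytes, differed by -0.21 ± 0.24 (SE, limma adjusted p = 0.737), or -0.40 without the same 2 tumours.

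Neutrophil genes did not separate the sides. Of 10 detected primary granule genes, 12 secondary granule genes and 11 mature neutrophil genes, 0 had an unadjusted p under 0.05, and the median differences were 0.21, -0.05 and -0.32, or 0.08, 0.06 and 0.10 without tumor_9509 and tumor_9514. Serpinb1a, a protease inhibitor, and Igsf6, a myeloid surface gene, differed most in the primary granule list, by 0.31 ± 0.16 and 0.37 ± 0.23 (SE, limma adjusted p = 0.362 and 0.465). Mmp8, the neutrophil collagenase, had the largest difference of the secondary granule list, -1.12 ± 0.68 (SE, limma adjusted p = 0.451), from 5.50 to 10.78 in Prg3-high tumours and from 8.35 to 10.16 in Prg3-low tumours. The high side thus held both the tumour with the least Mmp8, tumor_9508, and the one with the most, tumor_31. Ltf (lactoferrin) spread as widely, with a difference of -0.37 ± 0.59 (SE, limma adjusted p = 0.820), or -0.09 without tumor_9509 and tumor_9514. Fpr1, a receptor for bacterial peptides read by 1 probeset, differed by -0.68 and turned to 0.29 without these 2 tumours, which held the 2 highest Prg3-low values. Stfa2l1, a stefin gene read by 2 probesets, likewise turned from -0.60 to 0.69.

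Single monocyte and macrophage genes had wide differences, but their lists did not lean one way. Ms4a6c, a membrane protein gene of monocytes, lay at 8.12 to 11.07 in Prg3-high and at 6.08 to 9.68 in Prg3-low tumours, a difference of 1.24 ± 0.51 (SE, limma adjusted p = 0.277). Cd68, a lysosomal protein gene of phagocytes, differed by 0.72 ± 0.30 (SE, limma adjusted p = 0.285). These were the 2 of 13 detected monocyte genes with an unadjusted p under 0.05, a share near the 13.8% of all genes. The list's median difference was -0.04, or -0.14 without tumor_9509 and tumor_9514. Of 8 detected red pulp macrophage genes, 0 had an unadjusted p under 0.05. Among red pulp macrophage genes, Adgre1 (F4/80) differed by 0.60 ± 0.43 and the iron exporter gene Slc40a1 by -0.55 ± 0.35 (SE, limma adjusted p = 0.538 and 0.469). Without tumor_9509 and tumor_9514 the Slc40a1 difference was -1.21 (limma adjusted p = 0.199), with 13 tumours in the fit, and that of Adgre1 was 0.20. Bst2, fixed in the dendritic cell list and made by many cells under interferon, differed by 0.64 ± 0.25 (SE, limma adjusted p = 0.254), and its other 2 detected genes by no more than 0.04 in size.

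Most detected lymphocyte genes had differences below 0, and Cd79b was the only 1 of the B, T and NK cell lists with an unadjusted p under 0.05. Of all genes, 0.859% were lower at that cut. Cd79b and Cd79a, the signalling chains of the B cell receptor, differed by -0.60 ± 0.24 and -0.45 ± 0.28 (SE, limma adjusted p = 0.269 and 0.456), and Cd79a by -0.09 without tumor_9509 and tumor_9514. Cd79b was lowest in tumor_9492 at 6.90 and lay at 7.96 or above in every Prg3-low tumour. In the T cell list, 7 of 8 detected genes had a difference below 0, among them Cd3d (-0.36 ± 0.41) and Thy1 (-0.32 ± 0.58), and 0 had an unadjusted p under 0.05. Cd3d turned to 0.12 and Thy1 became -0.80 without the same 2 tumours. The mean level of the detected B cell genes ran from 7.71 to 8.79 in Prg3-high and from 7.95 to 8.73 in Prg3-low tumours, and that of the T cell genes from 6.66 to 7.89 in Prg3-high and from 7.16 to 7.62 in Prg3-low tumours. Median differences were -0.09 for MHC class II genes, where H2-Aa and H2-DMa differed by -0.26 and 0.21, and 0.12 for NK cell genes, where Nkg7 and Il2rb differed by 0.19 and 0.17. Without the 2 tumours the MHC class II median was 0.00, H2-Aa differed by -0.14 and Nkg7 by 0.54.

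Erythroid and stromal lists had medians of -0.18 and -0.10, or 0.02 and -0.03 without tumor_9509 and tumor_9514. Hbb-b1, a beta globin gene, and the membrane protein gene Slc4a1 differed by -0.46 ± 0.44 and -0.23 ± 0.20 (SE, limma adjusted p = 0.656 and 0.618), and the values were 0.12 and -0.08 without these 2 tumours. Postn, which encodes periostin, reached both 4.32 and 10.83 in Prg3-high tumours and 5.27 and 10.43 in Prg3-low tumours, so it did not follow the split (difference -0.74 ± 1.13, or -0.43 without the 2 tumours). Pdgfrb, a receptor of stromal cells, differed by 0.28 ± 0.17, and by 0.05 without the 2 tumours.

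Itga2b, the platelet integrin alpha chain that also marks early basophil and mast cell precursors, was the 1 megakaryocyte gene with an unadjusted p under 0.05. It lay at 7.38, 8.01 and 9.53 (lowest, median and highest) in Prg3-high tumours and at 6.79, 7.43 and 8.02 in Prg3-low tumours. Its 2 highest values belonged to tumor_33 (9.53) and tumor_9523 (9.08), as for Prg3, Il5ra and Hdc. The difference was 0.76 ± 0.30 (SE, limma adjusted p = 0.268), while its partner Itgb3 differed by 0.29 ± 0.23 and turned to -0.14 without tumor_9509 and tumor_9514. The median of the 7 detected genes of the list was -0.05, or 0.00 without them. With 1 of the 7 at an unadjusted p under 0.05, the list's share was near the 13.8% of all genes.

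Lists of growth genes had medians above that of all genes on 15 tumours, and these moved with the 2 arrays that stood apart. Srm, spermidine synthase, lay at 9.58 to 10.43 in Prg3-high and at 8.46 to 10.17 in Prg3-low tumours, a difference of 0.87 ± 0.21 (SE, limma adjusted p = 0.134), or 0.53 without tumor_9509 and tumor_9514. Polr1b, a subunit of RNA polymerase I, differed by 0.66 ± 0.21 (SE, limma adjusted p = 0.178), or 0.39 without them, and was lowest in tumor_9514, tumor_36 and tumor_9509. Of 12 detected Myc and ribosome biogenesis genes, 5 had an unadjusted p under 0.05, all higher, against 13.8% of all genes, and the median difference of 0.24 became 0.02 without the 2 tumours. The cell cycle list had a median of 0.23, or 0.01 without them, with Plk1 and Aurka, both mitotic kinases, at 0.53 ± 0.22 and 0.42 ± 0.20 (SE, limma adjusted p = 0.301 and 0.353), or 0.20 and 0.15 without them. Mki67, the proliferation antigen, had means of 10.49 in Prg3-high and 10.48 in Prg3-low tumours, and a difference of -0.05 on centred and -0.11 on quantile normalized arrays. The unfolded protein response list had a median of 0.22, or 0.03 without the 2 tumours. Its chaperone Calr differed by 0.35 (0.32 without them) and the transcription factor Atf4 by 0.30 (0.14 without them).

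Of the stem and progenitor list, 0 of 10 detected genes had an unadjusted p under 0.05. Etv6 and Myb, transcription factors of early blood cells, differed by 0.50 ± 0.26 and 0.37 ± 0.18 (SE, limma adjusted p = 0.381 and 0.352), and by 0.02 and 0.15 without tumor_9509 and tumor_9514. Among JAK-STAT genes Pim1, a kinase gene induced by cytokines, differed by 0.58 ± 0.29 and Stat3 by 0.29 ± 0.25 (SE, limma adjusted p = 0.363 and 0.612), and Stat3 turned to -0.11 without the 2 tumours. Irf7, the 1 detected interferon response gene, differed by 0.26 and was highest in tumor_31 at 8.21. Immediate early genes, which also respond to tissue handling, had a median of -0.18, with Btg2 at -0.46 ± 0.31 and Jun at 0.36 ± 0.33, and without the 2 tumours Btg2 was at -0.29 and Jun turned to -0.23.

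**Figure D4:**
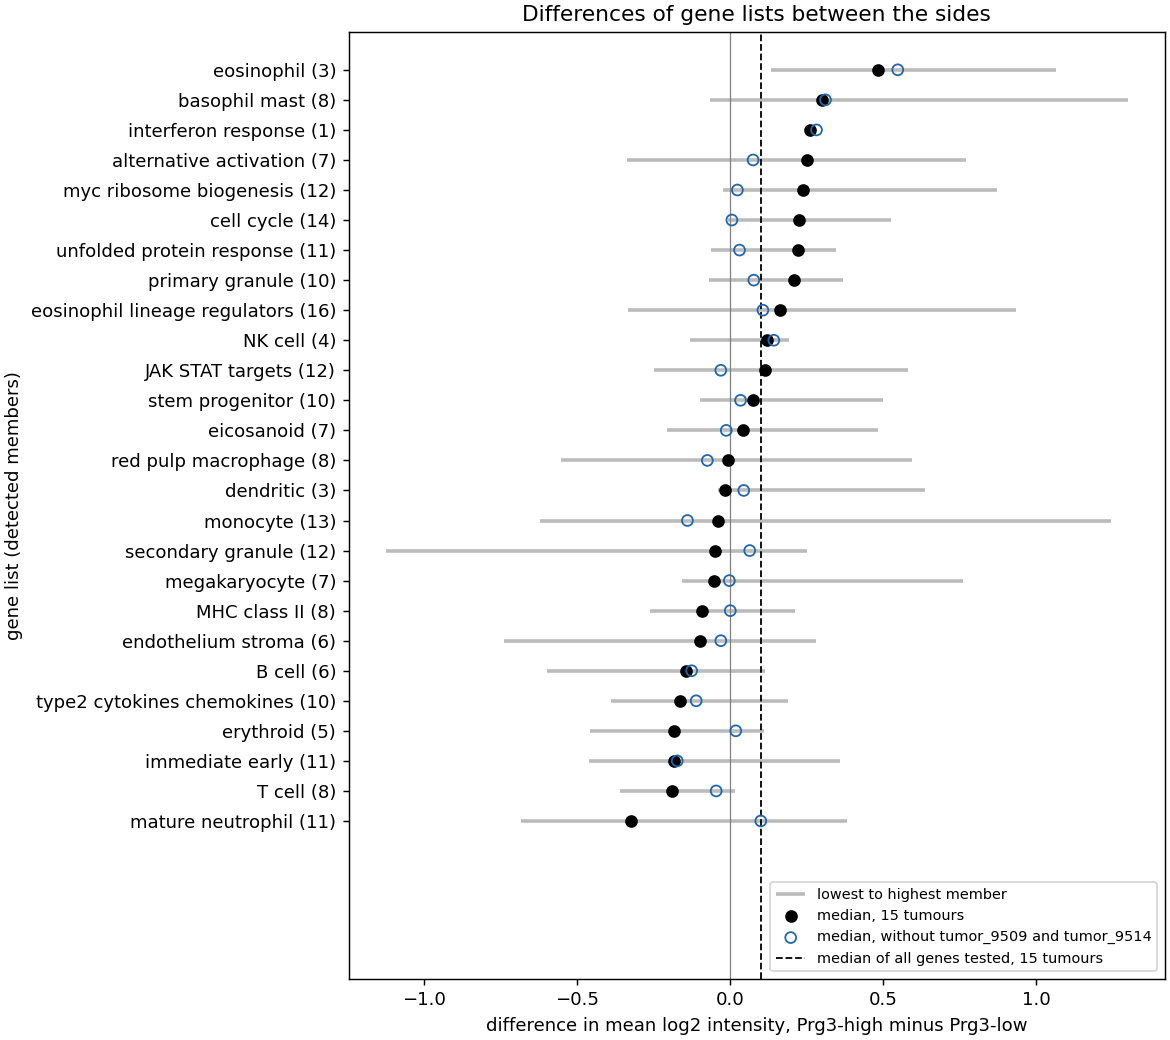
Differences in mean log2 intensity, Prg3-high minus Prg3-low (x axis), for each gene list with its number of detected members (y axis). Black points are medians over 15 tumours, open points medians without tumor_9509 and tumor_9514, grey bars span the members, and the dashed line is the median of all genes (0.10); eosinophil and basophil or mast cell genes keep their place without the 2 tumours, and mature neutrophil genes move from -0.32 to 0.10.

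Genes outside the lists separated the sides without overlap. With at least 3 probesets and the largest differences, these were Ubfd1, Ftsj1, Exosc5, Tle1 and Farsa on the higher side, and Nkx1-2 and Clk1 were the only 2 on the lower side. Tle1, a transcriptional corepressor, lay at 7.20, 7.69 and 7.95 (lowest, median and highest) in Prg3-high tumours and at 6.53, 6.70 and 7.15 in Prg3-low tumours. Its difference of 0.80 ± 0.14 (SE, limma adjusted p = 0.0886), a fold of 1.74, was 0.73 without tumor_9509 and tumor_9514. Exosc5, a subunit of the RNA exosome, lay at 8.43 to 9.24 in Prg3-high and at 7.73 to 8.28 in Prg3-low tumours, with a difference of 0.80 ± 0.14 (SE, limma adjusted p = 0.0886).

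Among the remaining 3 higher genes, Ubfd1, a ubiquitin-domain protein gene, had its lowest high value at 7.95 (tumor_33) and its highest low value at 7.94 (tumor_36), so the sides nearly touched. Ftsj1, a tRNA methyltransferase, and Farsa, a subunit of phenylalanyl-tRNA synthetase, differed by 0.85 ± 0.16 and 0.77 ± 0.18 (SE, limma adjusted p = 0.0886 and 0.122). In Farsa the 2 lowest values were those of tumor_9509 (7.48) and tumor_9514 (7.59), and the difference was 0.46 without them. Clk1, a kinase of splicing factors, lay at 10.16 to 10.73 in Prg3-high and at 10.76 to 11.12 in Prg3-low tumours (difference -0.34 ± 0.11, limma adjusted p = 0.178). Nkx1-2, a homeobox gene, lay close to the detection limit, at 6.46 to 6.75 in Prg3-high and at 6.78 to 7.30 in Prg3-low tumours.

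**Figure D5:**
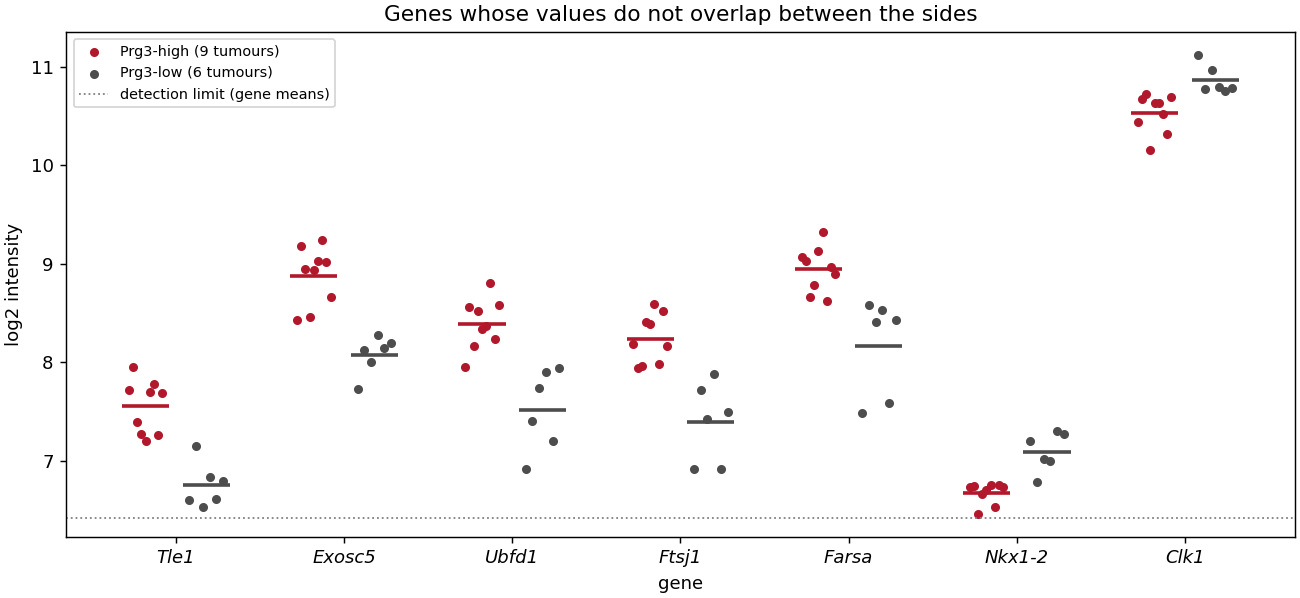
Log2 intensity (y axis) of the 7 named genes without overlap between the sides (x axis), 1 point per tumour, Prg3-high left and Prg3-low right, with bars at the means and a dotted line at the detection limit. The sides lie apart in each gene, from 7.95 against 7.94 in Ubfd1 to 8.43 against 8.28 in Exosc5 (lowest Prg3-high and highest Prg3-low tumour), and in Ftsj1 and Farsa the lowest Prg3-low points are tumor_9509 and tumor_9514.

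The split crossed other differences between these tumours, which were picked after their values were seen. Kdm6a, an X-linked histone demethylase gene, lay at 4.94 to 5.42 in tumor_9500, tumor_26, tumor_9495 and tumor_9520, all Prg3-high, and at 6.92 or above in every Prg3-low tumour. Ly6k, a surface protein gene, exceeded 10 in 1 of 9 Prg3-high tumours, tumor_9508 (11.47), and in 3 of 6 Prg3-low tumours, tumor_36 (10.72), tumor_9504 (11.18) and tumor_9509 (11.01). Neither difference passed the test (limma adjusted p = 0.418 for Kdm6a and 0.501 for Ly6k). Their part in the differences of other genes was not tested.

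Differences were unevenly spread over the chromosomes. The share of genes with an unadjusted p under 0.05 and a higher value was 23.9% on chromosome 2, 23.0% on chromosome 15 and 22.9% on chromosome 8, against 3.89% on chromosome 1 and 4.66% on chromosome 5. A chromosome value is how far a tumour's genes on that chromosome sit from their middle value over the tumours, once the tumour's own median is taken off. On chromosome 1 this value was 0.184 in tumor_29 and 0.189 in tumor_9529, both Prg3-low, and between -0.038 and 0.016 in Prg3-high tumours. On chromosome 8 it lay between -0.044 and 0.035 in all 15 tumours. On chromosome 15, which carries Csf2rb and Csf2rb2, it ranged from -0.098 to 0.135 in Prg3-high and from -0.141 to 0.018 in Prg3-low tumours. It was lowest there in tumor_36 (-0.141), tumor_9509 (-0.123) and tumor_9514 (-0.108), all Prg3-low. The link of these values with the shares was not tested. On chromosome 2, which carries Prg2 and Prg3, the value was -0.136 in tumor_36 and lay between -0.017 and 0.061 in the other 14. Among the 50 detected genes nearest to Prg3 in gene order, the median deviation was -0.152 in tumor_36 and -0.223 in tumor_9509 on the low side, but also -0.171 in tumor_9500 on the high side. In the 4 other Prg3-low tumours it was 0.005 to 0.131.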

How the data were processed

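The authors deposited linear intensity values for the probesets of Affymetrix Mouse Exon 1.0 ST arrays. Per the submitters' processing notes they used RMA and the build mm9, with no version given, and the values (2.38 to 19380.5) show the scale. Scanner files were not analysed here. Here, intensities were log2 transformed. Of 229581 probesets, the 208397 with 1 gene symbol in the platform annotation were used, 3965 had several and 17219 none; 2099 symbols were updated through the GRCm38.p6 gene table, used only for names, chromosomes and gene order, and 68 were kept as listed.

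Sides were set by the Prg3 value (threshold 7.4). Genes were compared with limma 3.58.1 in R 4.3.3 (lmFit, eBayes), Benjamini-Hochberg adjustment over 9777 detected genes without Prg2 and Prg3 and a threshold of 0.05. The step was tested on simulated data. Fixed rules named the 5 non-overlapping genes per direction with the largest difference and at least 3 probesets, all measured eosinophil genes and up to 2 per other list. Other members were named after their values were seen. The members and lists were chosen with earlier results of these data known. Figures used matplotlib 3.10.9 in Python 3.11.15. Alternatives changed the summary, filter, normalization, split, covariate and tumours used.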

Additional observations from a re-analysis of the deposited data

Results flagged for a closer look

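Among 69 named genes, 138 sets of values (a gene on the Prg3-high or the Prg3-low side) were checked for a tumour far from its side by Dixon's test. Of these sets 8 were flagged, a share near the 1 in 20 that chance alone gives. On the Prg3-high side, Ly6k was 11.47 in tumor_9508 with the next value at 7.65, and Cpa3 was 9.43 in tumor_9520 with the next at 10.88. Csf2rb2 was 6.38 in tumor_9492 with the next at 7.37, Polr1b was 7.73 in tumor_9523 with the next at 7.33, and Ear10, below the detection limit, was 4.83 in tumor_31 with the next at 2.96. On the Prg3-low side, Ltf was 8.36 and Pim1 8.45 in tumor_9504, with the next values at 10.64 and 7.45. Bst2 was 6.81 in tumor_36 with the next at 7.90.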

How the results depend on the processing

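The count of called genes stayed at 0 in 25 of 28 alternatives and ranged from 0 to 10 higher and from 0 to 1 lower when single tumours were left out. No eosinophil list gene was called in any of them. Of 78 tested genes given with values, 48 kept their direction in every alternative, though some alternatives, named below, could not change it. Without tumor_9509 and tumor_9514 the difference turned for Rnase2a (-0.50), Fpr1 (0.29), Stfa2l1 (0.69), Cd3d (0.12), Hbb-b1 (0.12), Itgb3 (-0.14), Jun (-0.23), Stat3 (-0.11), Il3ra (0.11), Cebpe (0.032) and Mki67 (-0.0016). Within the 5 tumours with a 2-digit number, added after the data were seen, it turned for Rnase2a (-1.99), Fpr1 (0.38), Stfa2l1 (3.32), H2-Aa (0.34), Cd79a (0.33), Cd3d (1.04), Hbb-b1 (0.60), Slc4a1 (0.36), Itgb3 (-0.067), Postn (0.0033), Pdgfrb (-0.034), Etv6 (-0.11), Myb (-0.11), Plk1 (-0.057), Aurka (-0.046), Btg2 (0.025), Mpo (-0.23), Cebpe (0.11), Ccl24 (-0.050) and Mki67 (-0.23). Among the 10 tumours numbered with 4 digits, turns were those of Chil4 (-0.097), Cd209a (0.036), H2-DMa (-0.023), Il3ra (0.041), Spi1 (-0.052) and Mcpt8 (-0.20). Other turns were those of Rnase2a with means over probesets (-0.22), brighter probesets (-0.039), without the 2 tumours nearest the threshold (-0.38) and as a slope on Prg3 (-0.20), of Cd209a with means over probesets (0.037), of Cebpe with means over probesets (0.020), of Ccl24 with brighter probesets (-0.063), of Il3ra without the 2 tumours nearest the threshold (0.028), and of Stfa2l1 (0.038), Postn (0.15) and Ccl24 (-0.011) as slopes. Mki67 turned on centred (-0.052) and quantile normalized (-0.11) arrays. With single tumours left out, the Stfa2l1 difference ranged from -1.17 to 0.050, and others ranged from -0.33 to 0.91 for Rnase2a, from -0.11 to 0.016 for Cd209a, from -0.60 to 0.045 for Thy1, from -0.094 to 0.35 for Nkg7, from -0.10 to 0.065 for Il3ra, and from -0.085 to 0.098 for Mki67. The Mcpt8 difference ranged from -0.0032 to 0.52 and the Ccl24 difference from -0.0092 to 0.24. The cause was not tested. Genes higher at an unadjusted p under 0.05 numbered 622 with quantile normalization, 552 without tumor_9509 and tumor_9514 and 289 in the 2-digit tumours, against 1354, and genes lower 443, 220 and 110, against 84. Other than Mki67, centring and quantile normalization turned none of these 78 genes. The filters on dim genes and the moderated fit with trend leave each difference as it is, so they could not turn one. Nor could the digit block, since tumours with a 2-digit number made up the same share of both sides. No paired analysis was possible because the labels hold 1 group and no shared replicate numbers. The number of arrays limits all of these values, and genes near the detection limit may be background.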

Other observations

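Of the genes tested, 17 had a mean over 1 log2 unit higher in Prg3-high tumours and 8 a mean over 1 lower, among them Cpa3, Ms4a6c, Epx, Ly6k and Mmp8, and all missed the adjusted threshold. Those named next were picked after their values were seen. Cenpv, a centromere protein gene, averaged 7.80 in Prg3-high and 6.55 in Prg3-low tumours (limma adjusted p = 0.0886), and Ift27, of intraflagellar transport, 8.90 in Prg3-high and 7.84 in Prg3-low tumours (limma adjusted p = 0.0886). Tpm2, a tropomyosin gene, averaged 7.35 in Prg3-high and 6.25 in Prg3-low tumours (limma adjusted p = 0.157). Its Prg3-low mean lay below the detection limit of 6.41, so it counted as detected only through the Prg3-high side. Ctla2b, a gene of a multigene family, had the largest difference of all, -1.74 (limma adjusted p = 0.216), with a range of 5.16 to 7.52 in Prg3-high and 6.17 to 11.07 in Prg3-low tumours. Cldn1, a tight junction gene, averaged 5.98 in Prg3-high and 7.17 in Prg3-low tumours (limma adjusted p = 0.134). Its Prg3-high mean lay below the detection limit, so it counted as detected only through the Prg3-low side. B3gnt5, a glycosyltransferase gene, averaged 6.81 in Prg3-high and 7.87 in Prg3-low tumours (limma adjusted p = 0.166).

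Mrps5, a mitochondrial ribosomal protein gene, was among the 28 higher genes without overlap (0.286% of those tested). It lay at 7.73 to 8.11 in Prg3-high and at 6.98 to 7.61 in Prg3-low tumours (limma adjusted p = 0.0886). Of the 30 genes without overlap, 5 lie on chromosome 2, which holds 761 of the 9777 genes tested. This was not particular to chromosome 2. Nubp2, Rpl7l1, Abcg1, Ddx39b and Gtf2h4 lie on chromosome 17, which holds 528 of the genes tested. Whether the 30 genes cluster by position was not tested.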
